A study of Phaseolus vulgaris with 6 samples.

Results

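The zinc induced facilitator (ZIF) genes of common bean were described here in developing pods of Albion and Voyager. They were taken as the rows of the deposited expression table with 1 of 5 listed gene identifiers, and these 5 rows were also all the rows annotated as zinc induced facilitator-like, of 19598 genes in the table. Albion and Voyager are navy bean cultivars chosen by the study for their contrasting seed zinc, with 3 samples of each, 6 in all. Every sample was total RNA of whole pods, ground with wall and seeds together, from plants grown in a greenhouse, with 2 pods pooled per replicate. The labels give an age of 20 days after anthesis to both genotypes, while the study's methods give an earlier age for the pods that were sequenced. The labels call the zinc condition of Albion low and that of Voyager normal, describe the supply of both as sufficient, and the table itself names a single high zinc treatment. The labelled zinc condition changes with the genotype, so these cannot be told apart from the labels, while the study's methods give the same zinc-containing fertilizer to the plants of both. No allele or transgene is named in the labels, and the genotypes differ over their whole genomes.

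ZIF proteins belong to the major facilitator superfamily, a large group of membrane carriers for small molecules. In Arabidopsis thaliana, ZIF1 sits in the vacuolar membrane and moves nicotianamine, a small chelator of zinc and iron, into the vacuole, which holds zinc back in that compartment. Its relatives are called ZIF-like (ZIFL). Arabidopsis ZIFL1 is known for a part in auxin transport in roots and in closure of stomata, and ZIFL2 for a part in potassium and caesium handling in roots. The roles of the bean genes are inferred from this homology alone.

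The measure was FPKM, the fragments mapped to a gene scaled to the length of its exons and to the number of mapped reads, which allows levels of different genes to be compared. The table gives 1 FPKM value per gene and genotype, in which the authors combined the 3 replicates. No spread between replicates and no test could be had from these values, so every difference below is a description of 1 pooled value against another. Depth per sample is unknown from the table. Over the whole table FPKM added up to 830694 for Albion and 950155 for Voyager, with medians of 11.1 and 11.7 FPKM per gene. Differences are given as log2(FPKM + 1), Voyager minus Albion, a scale that understates the difference of genes with low values. All genes of the table reached at least 0.73 FPKM in the genotype where they were higher. The table carries no spread, so a gene was counted as past 2-fold when its difference was at least 1 on this scale. Genes below that limit are called within 2-fold, although the ratio of their plain FPKM values can still exceed 2.

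The ZIF gene of chromosome 2 was under 1 FPKM in Albion and was the highest ZIF gene in Voyager, while the tandem copies on chromosome 11 carried most ZIF expression in Albion. The chromosome 2 gene had 0.82 FPKM in Albion and 19.35 FPKM in Voyager, a 23.6-fold higher value. The chromosome 11 copies summed to 31.1 FPKM in Albion, and their Voyager sum of 21.9 FPKM was 0.702 times that value. All 5 genes together reached 35.0 FPKM in Albion and 46.9 FPKM in Voyager.

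**Figure D1:**
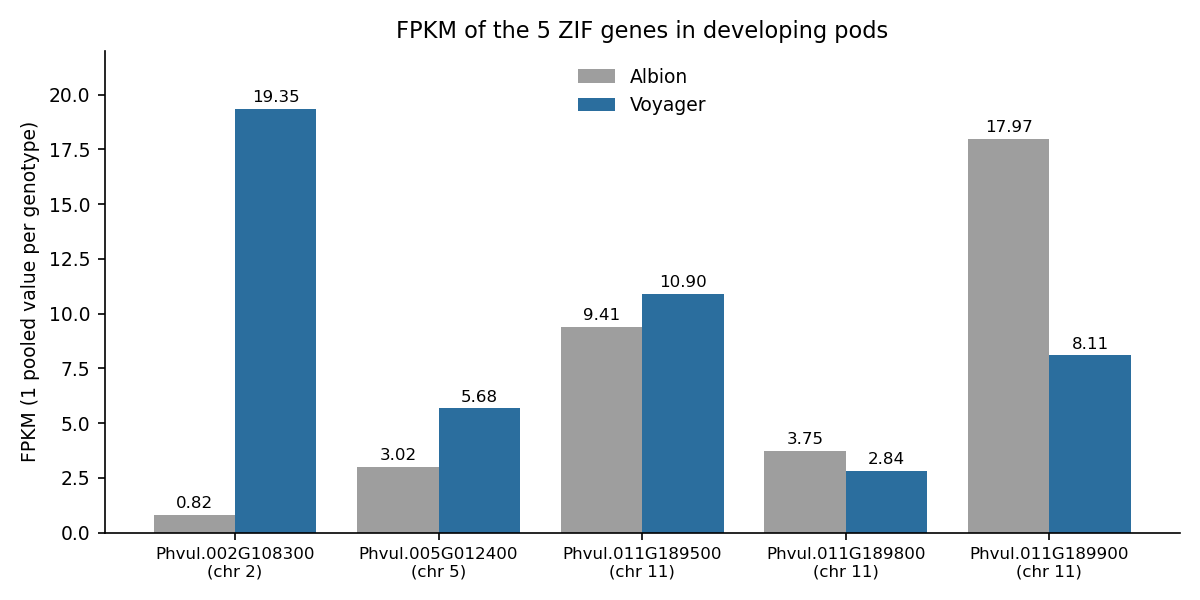
FPKM of the 5 ZIF genes (x axis, with chromosome) in Albion (grey bars) and Voyager (blue bars). Each bar is the authors' single pooled value, printed above it, and no error can be drawn. The bar of Phvul.002G108300 is the lowest of all in Albion, at 0.82 FPKM, and the highest of all in Voyager, at 19.35 FPKM.

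Phvul.002G108300 is the only member annotated as ZIFL2 and lies on chromosome 2 of the v1 genome from 21890013 to 21891601. Its gene model spans 1589 bases, against 5194 to 6578 bases for the other 4 members, and overlaps no other gene of the table. On the log2(FPKM + 1) scale its level was higher in Voyager by 3.48. Rounding of the deposited values to 2 decimals leaves the ratio between 23.45 and 23.75. In Albion 4.24% of all genes had a lower FPKM than this gene, and in Voyager 64.2% did. Among all 19598 genes its difference towards Voyager ranked 23. Only 17 genes of the table had at most 1 FPKM in Albion and at least 10 FPKM in Voyager, this gene among them, and 12 genes had the opposite arrangement.

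The size of this difference depended on the pseudocount, because the Albion value was low. Without a pseudocount it was 4.56 on the log2 scale, and with 0.1 FPKM in place of 1 FPKM it was 4.40.

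The chromosome 11 copies lie within 60404 bases, all annotated as ZIFL1, and did not differ between the genotypes in the same way. Phvul.011G189500 (46613123 to 46618521) had 9.41 FPKM in Albion and 10.90 FPKM in Voyager, a difference of 0.19. Phvul.011G189800 (46652668 to 46659245) had 3.75 FPKM in Albion and 2.84 FPKM in Voyager, a difference of -0.31. Phvul.011G189900 (46667766 to 46673526) had 17.97 FPKM in Albion and 8.11 FPKM in Voyager, a difference of -1.06. Only this last copy was past 2-fold, with an Albion value 2.22 times that of Voyager, and it lay close to the limit. The first pair of copies is separated by 34146 bases and the second by 8520 bases. In the first gap the study places further ZIF genes, with no expression at the precision it prints. Those genes are not among the members described here.

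The lower chromosome 11 sum in Voyager rested on Phvul.011G189900. Its level was lower in Voyager by 9.86 FPKM, where the sum of the copies was lower by 9.28 FPKM. Without this copy, a choice made after its values were seen, the other 2 copies summed to 13.2 FPKM in Albion and 13.7 FPKM in Voyager. The leading copy therefore differed between genotypes. Phvul.011G189900 made up 57.7% of the chromosome 11 sum in Albion and 37.1% in Voyager, while Phvul.011G189500 made up 30.2% in Albion and 49.9% in Voyager. The share of Phvul.011G189800 was 12.0% and 13.0%. Tandem copies of 1 family can share read sequence, and reads that fit several copies may have been divided among them, so the values of single copies are less certain than their sum.

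The chromosome 5 member, Phvul.005G012400 (1050386 to 1055579), is also annotated as ZIFL1 and lies apart from the tandem copies. It had 3.02 FPKM in Albion and 5.68 FPKM in Voyager, a ratio of 1.88 and a difference of 0.73. It thus had the higher value in Voyager, as the chromosome 2 gene did, but remained within 2-fold.

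Of the 5 ZIF genes, 1 was past 2-fold with the higher value in Voyager, 1 was past 2-fold with the higher value in Albion, and 3 were within 2-fold. Among all genes, 2.55% (499) were past 2-fold towards Voyager and 1.76% (345) towards Albion. Scaling both columns to the same sum gave 404 genes towards Voyager and 502 towards Albion, so the balance of the directions over the table rests on the scaling. The ZIF genes on either side of the limits stayed on their side under each scaling tried. The median difference was 0.19 over the ZIF genes and 0.07 over all genes. With 5 members these figures describe the list and set it apart from nothing.

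**Figure D2:**
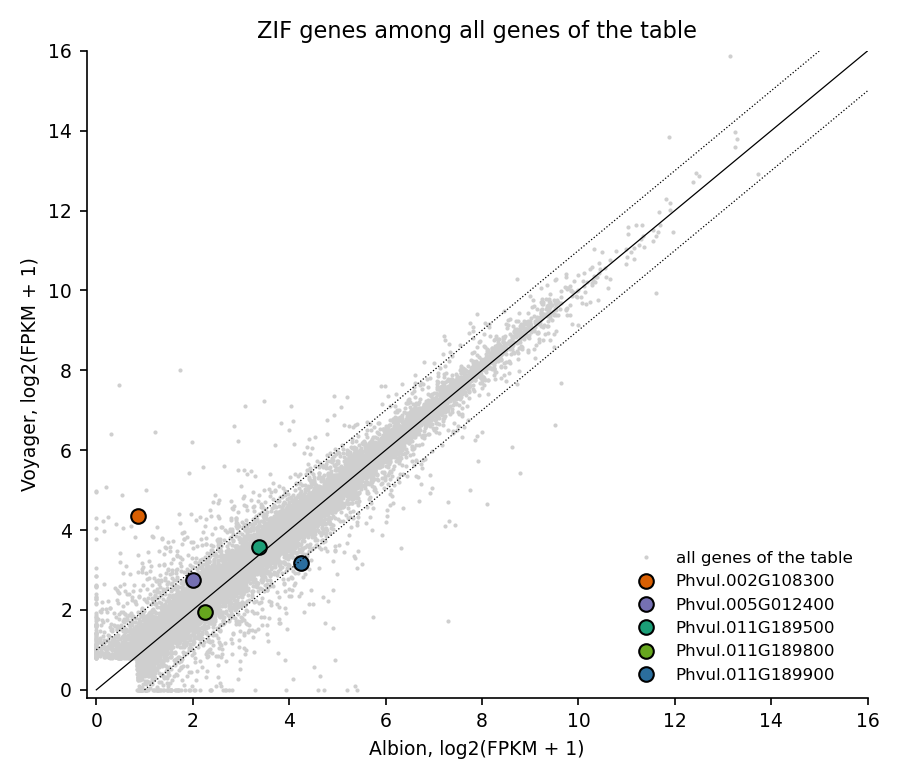
Level in Voyager (y axis) against Albion (x axis), both as log2(FPKM + 1), for all 19598 genes (grey points) and the 5 ZIF genes (coloured points). The solid line marks equal values and the dotted lines 2-fold. Phvul.002G108300 lies far above the upper dotted line, Phvul.011G189900 just under the lower one, and the other ZIF genes between them.

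The order of the ZIF genes by level was different in each genotype. In Albion it ran from Phvul.011G189900 through Phvul.011G189500, Phvul.011G189800 and Phvul.005G012400 to Phvul.002G108300. In Voyager Phvul.002G108300 came first, followed by Phvul.011G189500, Phvul.011G189900, Phvul.005G012400 and Phvul.011G189800. Phvul.011G189500 and Phvul.005G012400 held the same place in both orders. The highest member stood 21.9-fold above the lowest in Albion and 6.81-fold in Voyager. Whether neighbours in either order differ beyond replicate spread could not be judged from pooled values.

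In shares of the family sum, Phvul.002G108300 made up 2.34% in Albion and 41.3% in Voyager. The chromosome 11 copies together made up 89.0% in Albion and 46.6% in Voyager, and Phvul.005G012400 made up 8.64% and 12.1%. Put as a ratio, the chromosome 11 sum was 38.0 times the chromosome 2 gene in Albion and 1.13 times in Voyager. The family total was 1.34 times higher in Voyager, a difference of 0.41 on the log2(FPKM + 1) scale. The direction of the total rested on the chromosome 2 gene, since the other 4 members summed to 34.2 FPKM in Albion and 27.5 FPKM in Voyager.

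**Figure D3:**
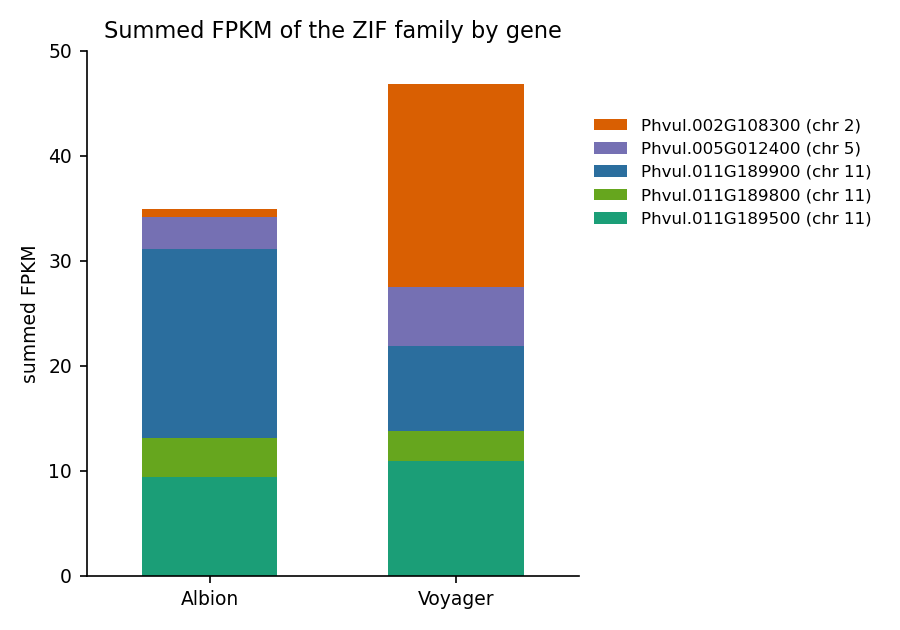
Summed FPKM of the ZIF family (y axis) in Albion and Voyager, with each segment the FPKM of 1 gene. The orange segment of Phvul.002G108300 is 2.34% of the Albion bar and 41.3% of the Voyager bar, and the blue segment of Phvul.011G189900 is 17.97 FPKM high in Albion and 8.11 in Voyager.

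Genes beside each ZIF locus were examined, taking the 5 nearest listed genes on each side. Of these 30 neighbours, 1 was past 2-fold, against 2.55% of all genes towards Voyager and 1.76% towards Albion. This gene, Phvul.002G108200, carries no annotation, lies on chromosome 2 from 21866505 to 21868137 and ends 21875 bases before Phvul.002G108300. It had 0.18 FPKM in Albion and 3.70 FPKM in Voyager, a difference of 1.99 in the same direction as its ZIF neighbour. The other 9 genes around the chromosome 2 locus lay between -0.19 and 0.68, with the gene next on the other side, armadillo repeat only 2 (Phvul.002G108400), at 8.59 FPKM in Albion and 9.36 FPKM in Voyager. The pair past 2-fold at this locus was thus made of immediate neighbours in the table, flanked by genes within 2-fold on both sides. Of the genes around this pair, Phvul.002G107900 had 0.90 FPKM in Albion and 2.05 FPKM in Voyager. Its plain ratio of Voyager over Albion was 2.28, so only the pseudocount kept it within the limit.

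Around the chromosome 11 copies, all 10 neighbours were within 2-fold on the log2(FPKM + 1) scale, from -0.93 to 0.76. No other gene of the table lay between the copies. The lowest of these values belonged to Phvul.011G189100, named here after its values were seen, a sulfotransferase 2A gene with 20.20 FPKM in Albion and 10.09 FPKM in Voyager. Its plain ratio of Voyager over Albion was 0.5, so only the pseudocount kept it within the limit. It lies 25907 bases before the first copy. The genes between it and Phvul.011G189900 were not lower in Voyager as a block, since Phvul.011G189400 (1.05 and 1.62 FPKM) and Phvul.011G189500 had the higher value in Voyager. Further out on that side, Phvul.011G188200 had 0.89 FPKM in Albion and 0.0 FPKM in Voyager, and Phvul.011G188800 had 1.08 and 0.33 FPKM. Only the pseudocount kept these low values within the limit too. Around the chromosome 5 gene the 10 neighbours ranged from -0.90 to 0.36.

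**Figure D4:**
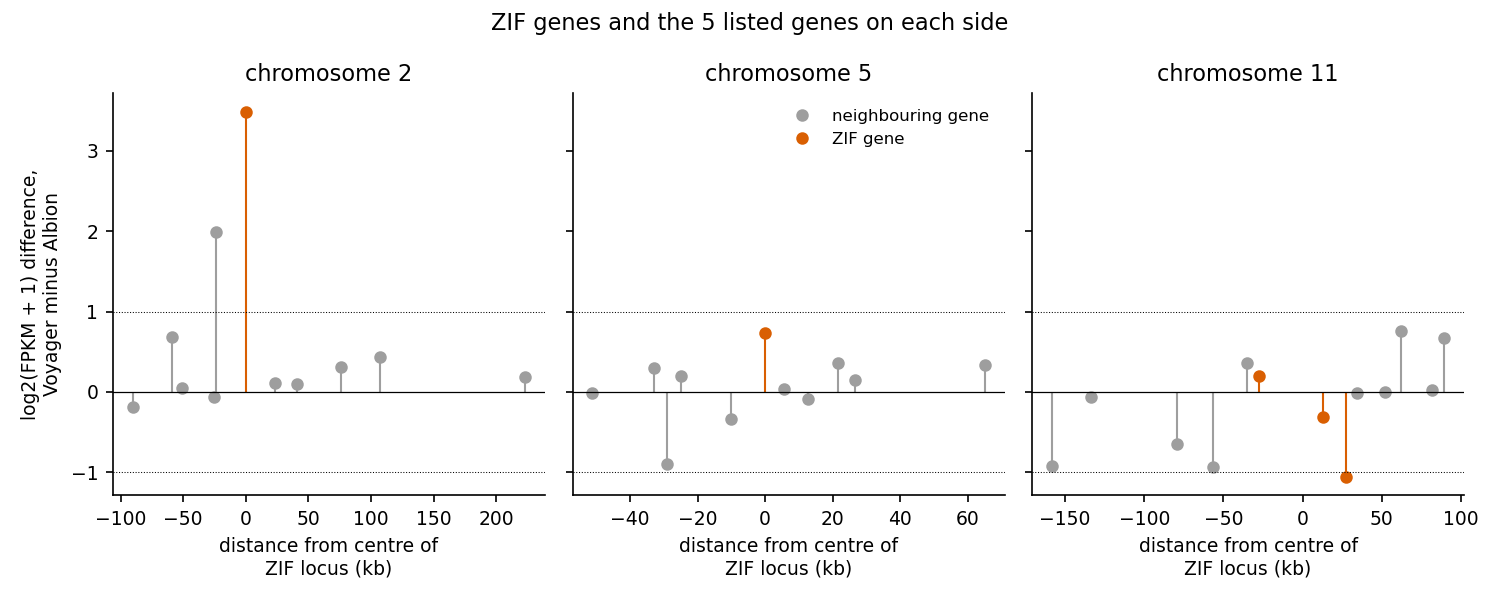
Difference in log2(FPKM + 1), Voyager minus Albion (y axis), for the ZIF genes (orange) and the 5 listed genes on each side (grey), against distance from the centre of the ZIF locus in kb (x axis). Dotted lines mark 2-fold. On chromosome 2 the orange point stands at 3.48 and 1 grey point beside it at 1.99, and on the other 2 chromosomes every grey point is within the dotted lines.

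The genes whose pair of values was most like that of Phvul.002G108300 were found by distance over both pooled values on the log2(FPKM + 1) scale, which is a likeness over 2 values only. The nearest was Phvul.003G138900, a mitochondrial ribosomal protein L37 gene with 0.64 FPKM in Albion and 16.11 FPKM in Voyager, at a distance of 0.292. Next came Phvul.011G025100, a transmembrane amino acid transporter family gene with 0.47 and 15.47 FPKM, at 0.434. The third was Phvul.008G152900, of the nodulin MtN21/EamA-like transporter family, with 1.41 and 15.95 FPKM, at 0.483.

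Other families that handle zinc and iron were found by words of their annotation and held 55 genes. The study lists further members of several of these families, so the lists are not whole families. Of the 55 genes, 1 was past 2-fold towards Voyager and 1 towards Albion, against 2.55% and 1.76% of all genes. The first was the zinc transporter 5 gene Phvul.006G003300 of the ZIP family, which in plants brings zinc and iron into the cytosol, with 1.66 FPKM in Albion and 7.90 FPKM in Voyager (difference 1.74). The second was the NRAMP6 gene Phvul.010G160800, of a family of divalent metal carriers, with 2.36 FPKM in Albion and 0.49 FPKM in Voyager (difference -1.17). Just within the limits lay the heavy metal ATPase gene Phvul.002G156800, with 10.59 FPKM in Albion and 4.83 FPKM in Voyager (difference -0.99). On the Voyager side lay the cation efflux gene Phvul.008G244200, with 0.91 and 2.61 FPKM (difference 0.92). The counts of the 55 genes were not repeated under other scalings or pseudocounts, where they could change. The difference of the chromosome 2 ZIF gene, at 3.48, was larger than that of any of these 55 genes.

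The cation efflux and vacuolar iron transporter families include carriers into the vacuole, though the site of each bean gene was not examined. None of the 9 cation efflux (MTP) genes was past 2-fold, and the highest of them, the MTP11 gene Phvul.008G015500, had 97.2 FPKM in Albion and 99.8 FPKM in Voyager. None of the 6 vacuolar iron transporter (VIT) genes was past 2-fold and their summed FPKM in Voyager was 1.36 times that in Albion. In the VIT list 5 of 6 genes had the higher value in Voyager, as did 61.9% of all genes of the table before any scaling. The highest VIT gene was Phvul.007G079100, with 28.1 FPKM in Albion and 37.7 FPKM in Voyager.

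Words for nicotianamine synthase matched no row used here, so that family was not described. The yellow stripe-like (YSL) family carries metal-nicotianamine complexes, and the 5 YSL genes found by annotation words lay between -0.14 and 0.28. Of these 5, YSL6 (Phvul.001G088900) was the highest with 60.4 FPKM in Albion and 64.9 FPKM in Voyager. The study's own list of YSL genes in these pods is longer and reaches higher values.

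Of the remaining lists, the 15 genes found by ZIP words included a pair annotated as NRAMP metal ion transporter family protein with the symbol EIN2, of the ethylene pathway. This pair matched the words of both the ZIP and the NRAMP list and was counted in the first. Of these 15 genes 14 had the higher value in Voyager before any scaling, against the same 61.9% of all genes. The differences reached 1.74, but several were slight, as in Phvul.011G058500 with 1.41 FPKM in Albion and 1.42 FPKM in Voyager. Scaling both columns to the same sum multiplied Voyager by 0.874 relative to Albion, so the count of 14 rests on the scaling. One of the NRAMP-annotated pair, Phvul.007G150600, was the highest of the list at 30.0 FPKM in Albion and 34.2 FPKM in Voyager. The 10 heavy metal ATPase (HMA) genes, pumps for zinc or copper, lay between -0.99 and 0.24, and the highest was the HMA7 gene Phvul.009G241800 with 32.7 and 35.5 FPKM. The other 4 genes of the NRAMP list, which leaves out that pair, were within 2-fold, as was the pair itself. Highest in this list was NRAMP3 (Phvul.002G014300), at 60.9 and 61.6 FPKM. Metallothioneins, small metal-binding proteins, were far more abundant, and all 5 lay between -0.33 and 0.35. Their highest gene, Phvul.008G101800, had 3262 FPKM in Albion and 3989 FPKM in Voyager.

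ZIF genes were also set beside the 91 other genes annotated to the major facilitator superfamily. The median difference of the 91 genes was 0.02. Of these, 2 were past 2-fold towards Voyager and 0 towards Albion, against 2.55% and 1.76% of all genes. They were Phvul.003G164000, with 1.51 FPKM in Albion and 4.96 FPKM in Voyager, and Phvul.008G003500, with 13.1 and 27.5 FPKM. The most abundant was Phvul.005G138100, with 147 and 198 FPKM.

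**Figure D5:**
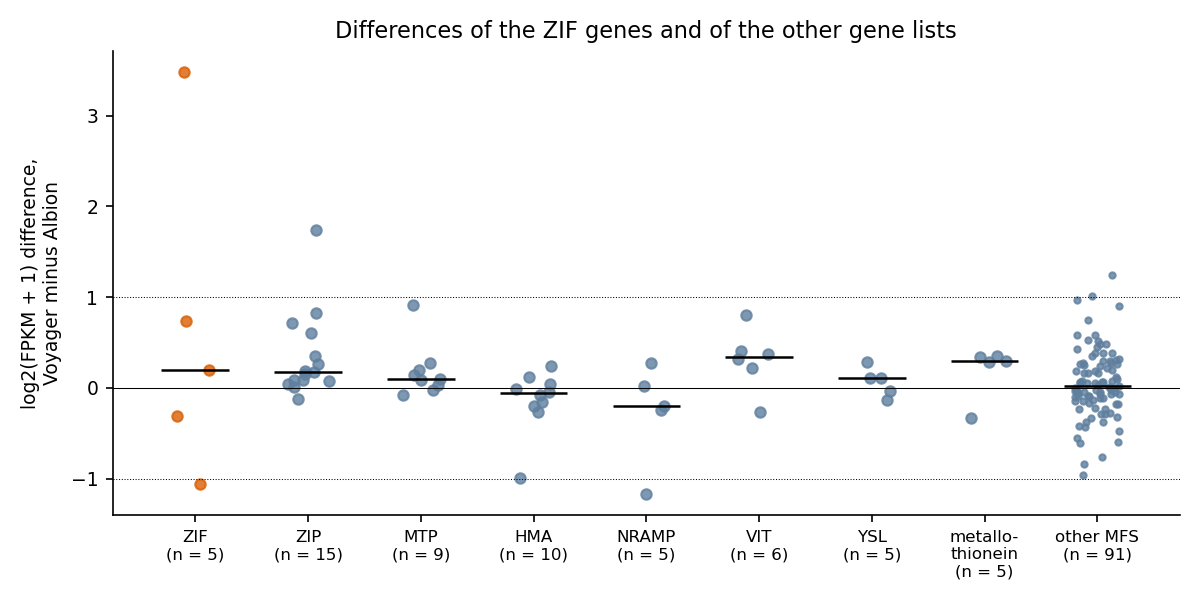
Difference in log2(FPKM + 1), Voyager minus Albion (y axis), for each gene (point) of the ZIF family, of the metal handling lists and of the other MFS genes (x axis, with the number of genes), with the list median as a bar and 2-fold as dotted lines. MFS is the major facilitator superfamily. The ZIF points run from -1.06 to 3.48, and the points of the metal handling and MFS lists drawn beside them from -1.17 to 1.74.

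Pods hold both wall and seed, and in such bulk samples fewer cells of a type and less RNA per cell cannot be told apart. The study describes a larger share of seed in the pod weight of Albion than of Voyager. Seed genes were present in both genotypes, with 3 cupin family genes summing to 11821 FPKM in Albion and 14839 in Voyager, and 4 oleosin genes summing to 861 and 695 FPKM. Late embryogenesis abundant genes, 48 in all and including relatives outside the seed, summed to 982 and 1088 FPKM. Genes of the 2S albumin superfamily, 74 in all and including lipid transfer proteins of other tissues, summed to 9533 and 8799 FPKM, with 3 past 2-fold towards Voyager and 1 towards Albion. Photosynthesis genes, used for green pod wall, numbered 84 and summed to 21168 and 19176 FPKM, with 2 past 2-fold towards Voyager and 6 towards Albion. These 6 are all light-harvesting or chlorophyll A/B binding copies of 1 stretch of chromosome 4, from 24677143 to 25227286. Such copies can share read sequence, as said of the ZIF copies. The median difference of the 84 genes was -0.05. Over all genes, 2.55% were past 2-fold towards Voyager and 1.76% towards Albion. No gene of the cupin, oleosin or late embryogenesis abundant lists was past 2-fold, and the sums of all 5 tissue lists lay between 0.807 and 1.26 times the Albion value in Voyager. Their part in the ZIF values was not tested.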

How the data were processed

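Paired-end reads of 75 bp from 3 Albion and 3 Voyager pod samples were filtered by the authors with the FASTX-Toolkit, aligned to the v1 bean genome with TopHat 1.4.1 and Bowtie 0.12.7, and quantified with Cufflinks 1.3.0 and Cuffdiff, per the submitters' processing notes and the study's methods. The FPKM values deposited by the authors are 1 pooled value per gene and genotype, rounded to 2 decimals. A further 5 columns hold the authors' own comparison (fold change, test statistic, p-value, q-value and call) and were not used. The table has no counts, so precision and depth per sample are unknown, and 3 against 3 replicates could not be tested.

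Differences were computed as log2(FPKM + 1) in Python 3.11 with numpy 2.4.6 and pandas 2.3.3, and a difference of at least 1 was called past 2-fold. The computation was tested on simulated data without noise, which checks the arithmetic only. Figures were drawn with matplotlib 3.10.9. Named genes were the ZIF members, neighbours and metal-list genes past 2-fold, the most abundant gene of each list, and the 3 genes nearest in pattern. Phvul.011G189100, Phvul.011G189400, Phvul.011G188200, Phvul.011G188800, Phvul.002G108400, Phvul.002G107900, Phvul.002G156800, Phvul.008G244200 and Phvul.011G058500 were named after their values were seen. Members and lists were chosen with earlier results of these data known. Alternatives covered pseudocount, scaling, filter, threshold and the genes in each sum. Protein and promoter sequences, SNPs and ZIF identifiers outside the members were not used here.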

Additional observations from a re-analysis of the deposited data

How the results depend on the processing

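All 5 ZIF genes kept their direction under every pseudocount and scaling tried. The difference of Phvul.002G108300 was 4.40 with a pseudocount of 0.1 FPKM and 4.56 without one, since its Albion value was below 1 FPKM. Scaling both columns to the same sum multiplied Voyager by 0.874 relative to Albion, moved the median difference of all genes to -0.11 and brought Phvul.011G189500 to 0.02, so its direction is the least certain. Leaving single genes out of a sum was added after seeing the data. Without Phvul.011G189900 the chromosome 11 sum differed by 0.058 and the family sum by 1.14, and without Phvul.002G108300 the family sum differed by -0.30. With a pseudocount of 0.1 FPKM, 882 genes were past 2-fold towards Voyager and 573 towards Albion, and with a threshold of 2 on the log2 scale 99 and 68 were. The other alternatives moved no result by more than 1.5 times, 45 of 54 in all. No paired analysis was possible because the table has no value of a single replicate, and leaving out replicates was not run for the same reason. The pooled values give no spread, and the authors' own test columns were not used. How far any of these differences exceeds replicate error was therefore not assessed here.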
